A study of Marchantia polymorpha and Klebsormidium nitens with 56 samples.

Results

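MpGCAM1 (GEMMA CUP-ASSOCIATED MYB 1, identifier Mp6g04830, on chromosome 6) is 1 of 20574 genes counted in a heat experiment on the liverwort *Marchantia polymorpha*, and its read counts were followed here through all 14 groups of that experiment. The gene was chosen by its read counts in heated against control plants of the hsfa1y line, where its rise had been seen, and taken by its identifier. Comparisons that hold hsfa1y libraries are therefore given as descriptions without a test, and the other comparisons were tested. MpGCAM1 had at least 21 reads in each of the 28 libraries, so it passed the filter on low counts without regard to heat.

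MpGCAM1 encodes a transcription factor of the R2R3-MYB family, orthologous to the RAX regulators that start axillary meristems in *Arabidopsis thaliana*. In *M. polymorpha* it is needed for gemma cups, the cup-shaped organs on the upper side of the thallus in which gemmae, the vegetative propagules, are made, and its overexpression leads to clumps of undifferentiated cells. In the KAI2 pathway, a receptor and an F-box protein remove the repressor SMXL, and cup and gemma formation is promoted through the cytokinin synthesis gene LOG together with MpGCAM1.

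RNA was sequenced from whole gemmalings, young plants grown from gemmae, which per the labels were 7 days old, were kept at 22 °C in constant light and were heated to 37 °C. The treatment text of the labels names 1 and 5 h of heat, but the labels of these 28 libraries do not say which was used. Each group held 2 libraries, which the design text of the series calls biological replicates. The male background comprised the hsfa1y and hsfb1 lines with and without heat, plants overexpressing HSFA1X or HSFA1Y without heat, and the wild type Tak-1 with and without heat. The female background comprised the hsfa1x line with and without heat, plants overexpressing HSFA1X or HSFA1Y without heat, and the wild type BC3 with and without heat. HSFA1 and HSFB1 are heat shock transcription factors. The genotype field names hsfa1y and hsfb1 as "ko" and hsfa1x as "ox", while the growth text names hsfa1 and hsfb1 knockouts and the sample sheet deposited with the counts lists all 3 as knockouts, apart from the overexpression lines. The line is called hsfa1x here, without a decision between the labels. The promoter of the overexpression constructs and the number of independent lines were not given in the sources used here. No identifier carries the name of a targeted gene in the tables used here, so whether these genes were lost or raised was not examined. Libraries held 17.7 to 23.997 M reads (median 20.1 M). The heat treatment was checked with MpHSP90-1, a chaperone gene of the heat response, which rose with heat in all 5 genotypes that had heat libraries, by a log2 of 2.97 to 3.86 in hsfb1, Tak-1, hsfa1x and BC3 and by 0.99 in hsfa1y.

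MpGCAM1 was higher with heat in each of the 5 genotypes. In hsfa1y it stood at 34.1 and 28.7 CPM (counts per 1000000 reads of the scaled library; 677 and 708 reads) with heat, against 1.52 and 0.928 CPM (30 and 21 reads) without heat. In hsfb1 it stood at 4.80 and 5.48 CPM (93 and 104 reads) with heat and at 1.59 and 1.30 CPM (36 and 26 reads) without. In Tak-1 the heated libraries had 8.09 and 7.68 CPM (149 and 145 reads), against 1.30 and 1.02 CPM (26 and 21 reads) in the control libraries. In each of these 3 genotypes both heated libraries lay above both control libraries. In hsfa1x the levels were 6.21 and 5.97 CPM (140 and 120 reads) with heat and 2.36 and 2.07 CPM (46 and 39 reads) without. In BC3 they were 12.3 and 11.2 CPM (277 and 221 reads) with heat and 1.78 and 2.12 CPM (40 and 47 reads) without. The heated libraries of hsfa1y stood apart from all others, and the lowest heated library, of hsfb1, was still above the highest library without heat, at 4.80 against 2.87 CPM. With 2 libraries a group such separations are descriptions, and the share of all genes that show them is not given here. In bulk RNA of whole plants, more cells that express the gene and more RNA per cell cannot be told apart.

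**Figure D1:**
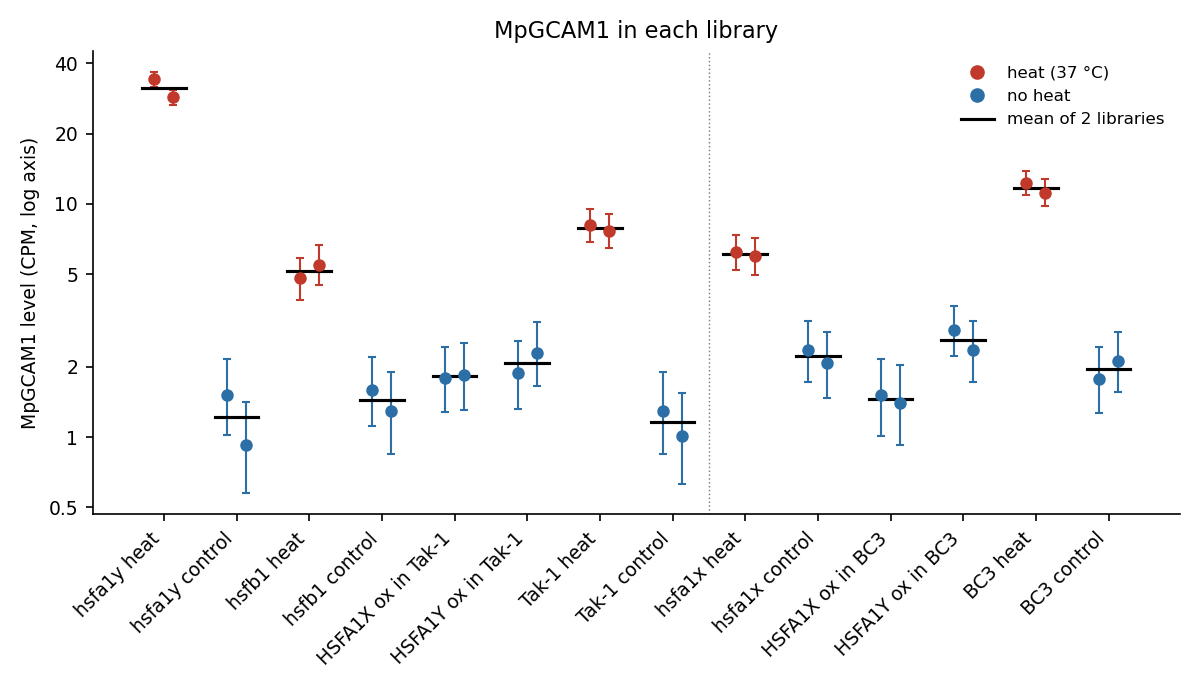
MpGCAM1 level in CPM (log axis) in each of 28 libraries, with heated groups in red and groups without heat in blue, the mean of 2 libraries as a black line and the exact Poisson 95% interval of each read count as a vertical bar. The dotted line separates the male background (left) from the female background (right); the 10 heated libraries lie between 4.80 and 34.1 CPM and the 18 others between 0.928 and 2.87 CPM.

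The plants overexpressing a heat shock factor had control libraries alone. In Tak-1, those with HSFA1X had 1.79 and 1.85 CPM (41 and 38 reads) and those with HSFA1Y 1.88 and 2.30 CPM (37 and 42 reads). In BC3, those with HSFA1X had 1.51 and 1.40 CPM (29 and 27 reads) and those with HSFA1Y 2.87 and 2.36 CPM (67 and 47 reads). All 8 libraries were below every heated library. At these counts the error of counting is large: the 21 reads of the second Tak-1 control library have an exact Poisson 95% interval of 12.999 to 32.1 reads, which covers counting error alone.

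By group mean, the order from the highest level ran from heated hsfa1y (31.4 ± 3.87 CPM, SD, n = 2 here and throughout) through heated BC3 (11.7 ± 0.788), heated Tak-1 (7.89 ± 0.287), heated hsfa1x (6.09 ± 0.165) and heated hsfb1 (5.14 ± 0.477). None of these neighbours overlapped in their libraries, a description at n = 2, since the share of all genes that do so is not given here. The groups without heat followed in a narrow band, from HSFA1Y overexpression in BC3 (2.61 ± 0.362 CPM) to the Tak-1 controls (1.16 ± 0.202 CPM). Neighbours within this band overlapped, with the exception of HSFA1X overexpression in Tak-1 (1.82 ± 0.0373 CPM) over HSFA1X overexpression in BC3 (1.45 ± 0.0783 CPM).

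The question of how far heat changes MpGCAM1 was read from heated against control libraries within each genotype, with the quasi-likelihood F test of edgeR adjusted by Benjamini-Hochberg over 13432 genes. In Tak-1 the gene rose by a log2 of 2.76 ± 0.21 (SE), a 6.79-fold change with a 95% interval of 4.99 to 9.23 (adjusted p = 1.17e-10). In BC3 it rose 6.01-fold (log2 2.59 ± 0.19, 95% interval 4.59 to 7.88-fold, adjusted p = 4.56e-11). In hsfb1 it rose 3.53-fold (log2 1.82 ± 0.21, 95% interval 2.60 to 4.79-fold, adjusted p = 1.79e-07). In hsfa1x it rose 2.74-fold (log2 1.45 ± 0.20, 95% interval 2.07 to 3.64-fold, adjusted p = 1.70e-06). The rises in all 4 held in each alternative tried, though the stricter filter among them keeps the gene through heated libraries alone. Heat moved many genes at once, and the share of all tested genes called in either direction was 51.1% in Tak-1, 47.8% in BC3, 40.4% in hsfb1 and 41.8% in hsfa1x, so a call alone places MpGCAM1 with a large part of the genes.

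In hsfa1y the same fit gave a log2 change of 4.69 ± 0.20, a 25.8-fold rise with a 95% interval of 19.4 to 34.4, and 44.5% of all tested genes were called there. It is a description, since the gene was singled out by this rise. By the size of its log2 change among 13432 genes, MpGCAM1 ranked 15th from the highest in hsfa1y. In Tak-1 it ranked 176th, in BC3 191st, in hsfb1 318th and in hsfa1x 543rd. In absolute terms heat added 30.2 CPM in hsfa1y, 6.73 CPM in Tak-1, 9.79 CPM in BC3, 3.70 CPM in hsfb1 and 3.87 CPM in hsfa1x.

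**Figure D2:**
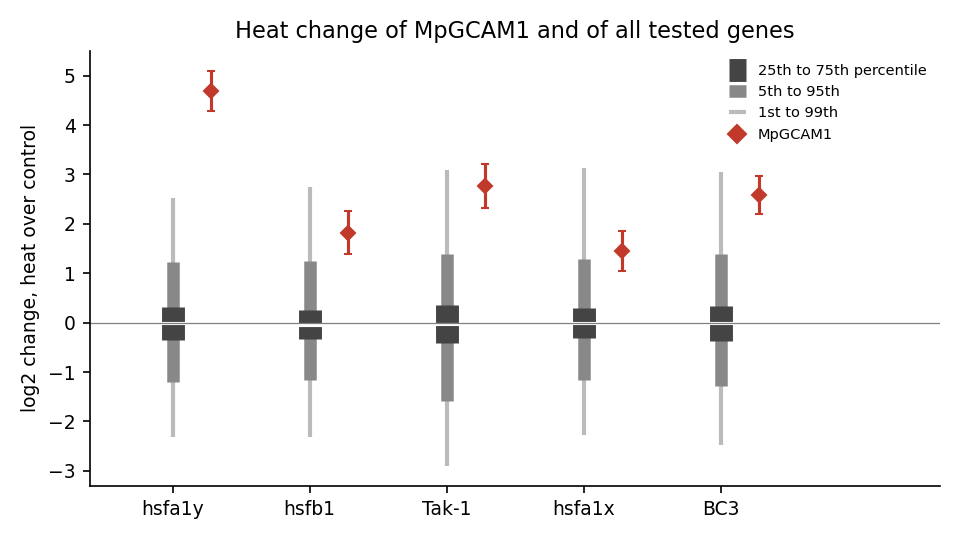
Log2 change with heat over control in the 5 genotypes. Red diamonds show MpGCAM1 with its 95% interval, and the stacked grey bars show the percentile ranges of all 13432 tested genes, with a white line at their median; MpGCAM1 lay above the 99th percentile in hsfa1y (4.69 against 2.52) and between the 95th and the 99th in the other 4 genotypes.

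Whether the heat response of MpGCAM1 differs between genotypes was read from the difference of 2 heat responses in the same fit. In hsfa1x the response was lower than in BC3 by a log2 of -1.13 ± 0.28 (adjusted p = 0.0165), where 5.87% of all tested genes were called. That call was lost in 4 of 16 alternatives. The adjusted p was 0.110 without control replicate 1 of BC3, 0.111 without control replicate 1 of hsfa1x, 0.0597 without heat replicate 2 of hsfa1x and 0.146 with the 8 libraries of the comparison alone. The response of hsfb1 minus that of Tak-1 was -0.94 ± 0.32 on the log2 scale, which did not pass (adjusted p = 0.0529, with 11.8% of all genes called). The responses of Tak-1 and BC3 differed by a log2 of 0.18 ± 0.30 (95% interval -0.44 to 0.79, adjusted p = 0.792, with 6.24% of all genes called). The response of hsfa1y exceeded that of Tak-1 by 1.93 ± 0.32 on the log2 scale, again without a test, beside 14.5% of all genes called. MpHSP90-1 had its smallest heat response in hsfa1y. MpGCAM1 had its largest there, but it was chosen by that rise, so this contrast is a description.

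The comparisons of hsfa1y and hsfb1 with Tak-1 share the Tak-1 libraries, and those of the overexpression lines share the wild-type controls, so they are not independent of each other. Heated plants of different genotypes were also compared directly. In heated hsfa1x, MpGCAM1 was lower than in heated BC3 by a log2 of -0.95 ± 0.16, at 6.09 ± 0.165 against 11.7 ± 0.788 CPM (adjusted p = 0.000336, beside 13% of all genes called). In heated hsfb1 it was lower than in heated Tak-1 by -0.62 ± 0.17, at 5.14 ± 0.477 against 7.89 ± 0.287 CPM (adjusted p = 0.00725, beside 39% of all genes called), and without heat replicate 1 of hsfb1 this call was lost (adjusted p = 0.0811). Heated hsfa1y stood above heated Tak-1 by a log2 of 1.99 ± 0.16, which is a 3.98-fold difference (95% interval 3.16 to 5.00-fold) and was not tested, beside 28.6% of all genes called.

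Without heat the fitted differences between these lines and their wild types were small. In hsfa1y the level was 1.22 ± 0.419 CPM and in Tak-1 1.16 ± 0.202 CPM (log2 0.06 ± 0.27, 95% interval -0.50 to 0.63, not tested, beside 8.01% of all genes called). In hsfb1 it was 1.44 ± 0.208 CPM, which did not pass against Tak-1 (log2 0.33 ± 0.26, 95% interval -0.22 to 0.87, adjusted p = 0.375, beside 34.3% of all genes called). In hsfa1x it was 2.22 ± 0.203 CPM and in BC3 1.95 ± 0.239 CPM, which did not pass either (log2 0.19 ± 0.22, 95% interval -0.28 to 0.65, adjusted p = 0.635, beside 18.7% of all genes called). These intervals leave room for differences of up to about a log2 of 0.87 in hsfb1 and 0.65 in hsfa1x.

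Overexpression of a heat shock factor was tested against the matching wild type without heat. HSFA1Y in Tak-1 gave 2.09 ± 0.295 CPM against 1.16 ± 0.202 CPM in Tak-1, higher by a log2 of 0.85 ± 0.25 (adjusted p = 0.0106, beside 35.6% of all genes called). This call was lost without replicate 2 of that line (adjusted p = 0.0962), without control replicate 2 of Tak-1 (adjusted p = 0.109) and with the 4 libraries of the comparison alone (adjusted p = 0.0506). HSFA1X in Tak-1 gave a log2 of 0.65 ± 0.25, which missed the threshold of 0.05 by a narrow margin (adjusted p = 0.05002, beside 32.5% of all genes called), and 5 of 12 alternatives put it past the threshold. In BC3 neither line passed: HSFA1Y stood at a log2 of 0.43 ± 0.22 (adjusted p = 0.184, beside 20.1% of all genes called) and HSFA1X at -0.42 ± 0.24 (adjusted p = 0.237, beside 21.5% of all genes called). The largest of these overexpression values, a log2 of 0.85, was below the smallest heat change, 1.45 in hsfa1x. Their 95% intervals overlapped, at 0.32 to 1.37 and 1.05 to 1.86, and the difference between them was not tested.

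Between the wild types, MpGCAM1 was lower in Tak-1 than in BC3 without heat by a log2 of -0.75 ± 0.25, at 1.16 ± 0.202 against 1.95 ± 0.239 CPM (adjusted p = 0.0350, beside 19% of all genes called). That call was lost in 6 of 12 alternatives, with adjusted p-values from 0.0565 to 0.265: with DESeq2, with no filter on low counts, with the 4 libraries alone, without either control replicate of Tak-1 and without control replicate 2 of BC3. With heat the gene was lower in Tak-1 by -0.58 ± 0.16 (adjusted p = 0.0164, beside 18.6% of all genes called), and this call was lost without heat replicate 1 of BC3 (adjusted p = 0.0626), without heat replicate 1 of Tak-1 (adjusted p = 0.0672) and without heat replicate 2 of Tak-1 (adjusted p = 0.0975).

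**Figure D3:**
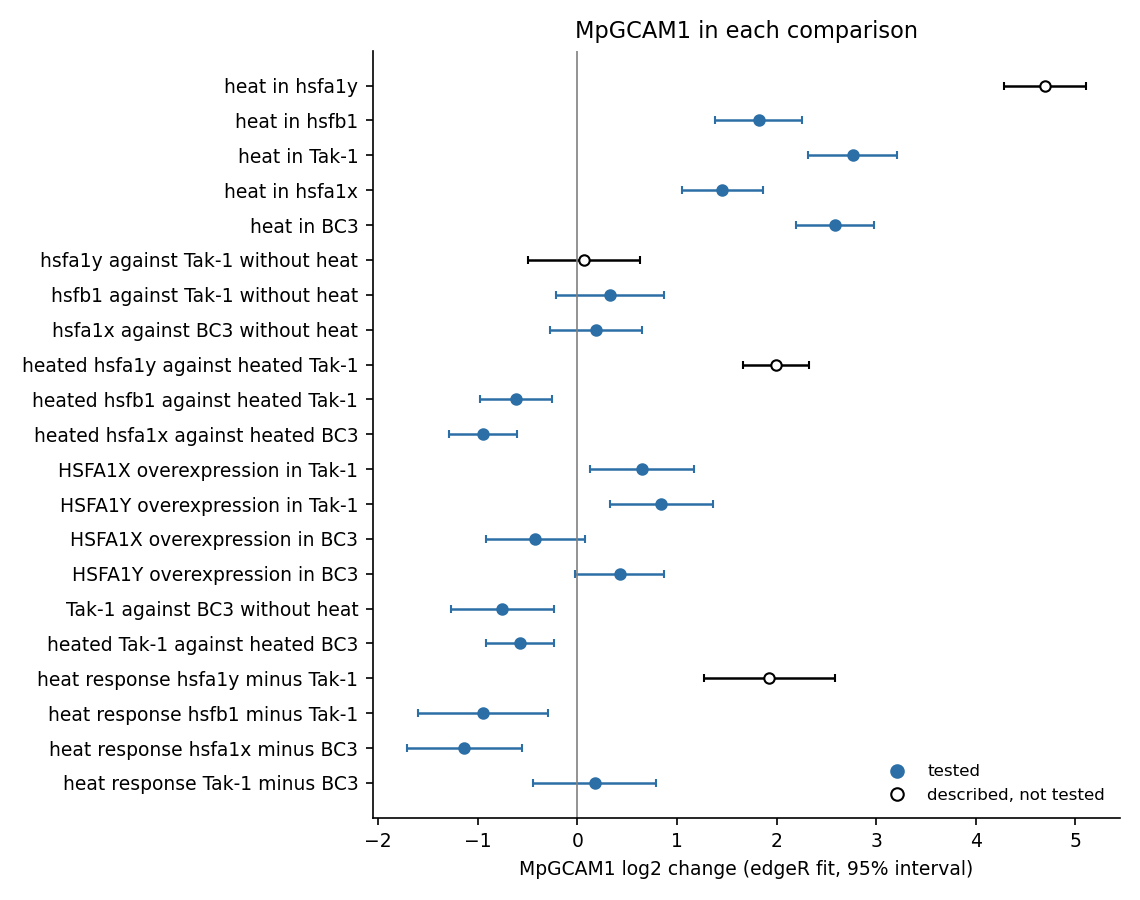
MpGCAM1 log2 change in each of 21 comparisons, heat over control or the first-named group over the second, with 95% intervals from the edgeR fit; filled points were tested and open points, which hold hsfa1y libraries, were not. By fitted value the 5 heat changes lie between 1.45 and 4.69, above the changes with overexpression and between lines without heat, which lie between -0.75 and 0.85. The intervals of the nearest of these overlap.

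Genes upstream of MpGCAM1 were read from a list of the KAI2 pathway, of which 4 of 5 named members were measured. In Tak-1 none rose and 2 fell with heat, where 25.6% of all tested genes rose and 25.5% fell, with a list median of -0.54 against -0.02 for all genes. MpSMXL, the repressor of the pathway, fell by 0.85 ± 0.09 (adjusted p = 5.01e-08), and MpKAI2B, a receptor gene, fell by 0.77 ± 0.11 (adjusted p = 1.35e-06). The other listed receptor gene, MpKAI2A, did not pass in Tak-1 (log2 0.15, adjusted p = 0.498) or in any other genotype. In hsfa1y 1 rose and 1 fell, where 22.1% of all genes rose and 22.4% fell (list median -0.27 against -0.01). MpKAI2B was at 22.3 ± 1.89 CPM in heated hsfa1y and at 40.2 ± 3.86 CPM in its controls (log2 -0.84). MpMAX2, the F-box gene, rose by 0.51, and MpSMXL did not pass there (log2 -0.18, adjusted p = 0.118). In hsfb1 and hsfa1x 2 members fell and in BC3 3 fell, with 0 rises in these 3 genotypes; the shares of all genes that fell there were 21.6%, 22% and 24%.

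Of 11 named cytokinin genes 10 were measured, and in Tak-1 6 rose, 2 fell and 2 did not pass with heat (list median 0.21), where 25.6% of all genes rose and 25.5% fell. MpIPT1, of the enzyme family that starts cytokinin synthesis, rose by a log2 of 1.22 ± 0.10 (adjusted p = 4.47e-10) and MpCHK2, a cytokinin receptor gene, by 0.99 ± 0.38 (adjusted p = 0.0303). MpCKX2, of the enzymes that break cytokinin down, fell by 1.93 ± 0.65 (adjusted p = 0.0148) from a low level, with 0.240 ± 0.186 CPM in heated and 0.935 ± 0.0225 CPM in control plants. In hsfa1y 3 rose, 2 fell and 5 did not pass (list median 0.18), where 22.1% of all genes rose and 22.4% fell. The largest change there was that of MpLOG, which activates cytokinin precursors (log2 1.67 ± 0.09). MpLOG stood at 78.4 ± 1.63 CPM with heat and 24.6 ± 2.86 CPM without. It was named by this change, so its values in hsfa1y are descriptions. In the overexpression groups without heat MpLOG stood at 69.7 to 79.9 CPM, where MpGCAM1 stood at 1.45 to 2.61 CPM. The Pearson r of its log2 CPM with that of MpGCAM1 over the 28 libraries was 0.394. MpLOG rose with heat in the other 4 genotypes too, by a log2 of 0.25 in hsfb1, 0.35 in Tak-1, 0.59 in hsfa1x and 0.61 in BC3. Its response in hsfa1y exceeded that in Tak-1 by 1.32 ± 0.12, which is also a description. In hsfb1 4 cytokinin genes rose and 2 fell, in hsfa1x 4 and 1, and in BC3 4 and 2, where 18.8%, 19.8% and 23.9% of all genes rose and 21.6%, 22% and 24% fell.

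Of the genes that start gemmae and rhizoids, 3 of 5 named members were measured. MpKAR (KARAPPO), the activator of a small GTPase that is needed for the first division of gemmae, fell by 0.93 ± 0.18 on the log2 scale in Tak-1 (adjusted p = 0.000122) and in BC3 by 0.90 (adjusted p = 0.000293). It did not pass in hsfa1y, at 14.8 ± 1.98 CPM with heat and 16.7 ± 3.59 CPM without (log2 -0.18, adjusted p = 0.428). MpROP, the small GTPase, stood at a log2 of 0.07 in Tak-1 and 0.04 in hsfa1y, and MpRSL1, a bHLH factor needed for rhizoids and gemmae, at -0.38 and -0.29, and none of these 4 values passed. MpRSL1 rose in hsfb1 by 0.79 (adjusted p = 0.00357) and MpROP rose in hsfa1x by 0.18 (adjusted p = 0.0423), where 18.8% and 19.8% of all genes rose. The list medians were -0.38 in Tak-1 and -0.18 in hsfa1y, against -0.02 and -0.01 for all genes. Of all tested genes 51.1% were called in Tak-1, 44.5% in hsfa1y and 47.8% in BC3.

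Of 18 named auxin genes 12 were tested, and 10 fell in Tak-1 and 11 each in hsfb1, hsfa1x and BC3, with 0 rises and list medians between -0.34 and -0.58. Of all tested genes 25.5% fell in Tak-1, 21.6% in hsfb1, 22% in hsfa1x and 24% in BC3. In Tak-1 the largest falls were those of MpARF3, an auxin response factor gene (log2 -2.85 ± 0.09, adjusted p = 6.74e-18), MpGH3B, of an enzyme that conjugates auxin (-1.03, adjusted p = 0.00339), and the corepressor gene MpTPL (-0.82, adjusted p = 5.51e-09). In hsfa1y 5 fell, 2 rose and 5 did not pass (list median -0.05), where 22.4% of all genes fell and 22.1% rose. MpYUC2, of the auxin synthesis enzymes, rose there by a log2 of 2.05 ± 0.13, to 21.1 ± 0.926 CPM with heat against 5.10 ± 0.407 CPM without. It was named by this change, so the value is a description. In the other 4 genotypes MpYUC2 fell by 0.34 to 1.47. The second gene that rose was MpIAA, a repressor of auxin responses, by 0.19.

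Of 10 named meristem and stem cell genes 8 were tested, and 4 rose and 4 fell in Tak-1 (list median -0.21), where 25.6% of all genes rose and 25.5% fell. MpERF20 (LAXR), which promotes the return of cells to a stem cell state in regeneration, rose in all 5 genotypes, by a log2 of 3.02 ± 0.23 in hsfa1y, 2.39 ± 0.19 in Tak-1, 1.84 in hsfa1x, 1.5002 in BC3 and 1.42 in hsfb1. Its level in heated hsfa1y was 7.47 ± 1.01 CPM and in heated Tak-1 13.9 ± 0.353 CPM, so that the higher level was in Tak-1, unlike for MpGCAM1. The response did not pass as different between these genotypes (log2 0.63, adjusted p = 0.198). The highest level of MpERF20 was in hsfb1, at 29.2 CPM with heat and 10.9 CPM without. Among the heated groups MpGCAM1 was lowest in hsfb1, at 5.14 CPM. MpCLE1, of a peptide signal that acts on the meristem, fell in Tak-1 by 3.12 ± 0.31 (adjusted p = 9.51e-09), to 0.427 ± 0.220 CPM with heat against 3.78 ± 0.744 CPM without, and MpC4HDZ, a homeobox gene, fell by 1.34 (adjusted p = 5.41e-12). In hsfa1y 4 rose, 1 fell and 3 did not pass (list median 0.36), where 22.1% of all genes rose and 22.4% fell. In hsfb1 3 rose and 4 fell, in hsfa1x 4 and 3, and in BC3 4 and 4, beside 40.4%, 41.8% and 47.8% of all genes called in either direction.

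Of the other R2R3-MYB genes, 24 carried a symbol of the family or of MYB-like genes and 17 were tested. In Tak-1 6 rose, 6 fell and 5 did not pass (list median 0.13), and in hsfa1y 7 rose, 4 fell and 6 did not pass (list median 0.19). Of all tested genes 51.1% were called in Tak-1 and 44.5% in hsfa1y. MpR2R3-MYB5 rose in all 5 genotypes, by a log2 of 2.89 ± 0.15 in hsfa1y, where it stood at 49.7 ± 3.07 CPM with heat and 6.68 ± 0.989 CPM without, and by 1.78 ± 0.14 in Tak-1. The response of MpR2R3-MYB5 in hsfa1y exceeded that in Tak-1 by 1.11 ± 0.21, a description, since the gene was named by its change in hsfa1y. MpDUO1, the regulator of sperm formation that is also among the sexual organ markers, rose by 2.19 ± 0.42 in Tak-1 (adjusted p = 0.000132), to 2.84 ± 0.634 CPM with heat against 0.620 ± 0.467 CPM without. MpR2R3-MYB1 (FGMYB), which promotes female differentiation, fell in Tak-1 by 2.46 ± 0.30 (adjusted p = 4.16e-07) and MpR2R3-MYB17 by 2.43 ± 0.23 (adjusted p = 5.33e-09). Reads of MpR2R3-MYB1 lay mostly in the male background, at 5.18 CPM in control Tak-1 against 0.202 CPM in control BC3. The strand setting was not given, so reads from either strand of this locus cannot be told apart. In hsfb1 5 rose and 5 fell, in hsfa1x 5 and 5, and in BC3 5 and 6, beside 40.4%, 41.8% and 47.8% of all genes called.

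**Figure D4:**
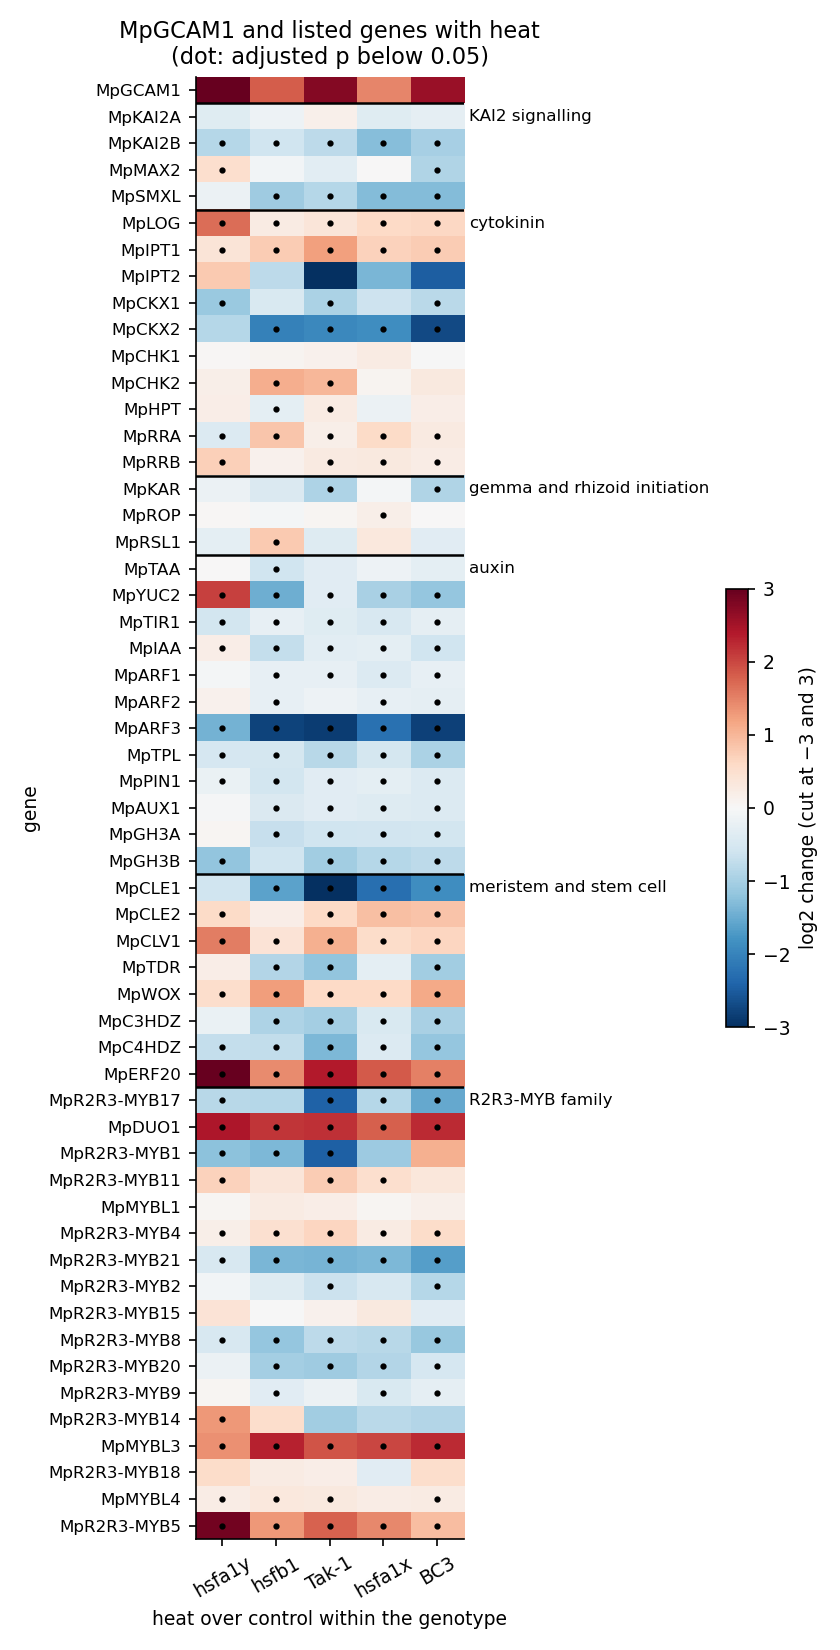
Log2 change with heat over control in 5 genotypes (columns) for MpGCAM1 (top row) and the tested members of 6 gene lists (rows), in red where higher with heat and in blue where lower; a dot marks an adjusted p below 0.05, and the row of MpGCAM1 carries no dots. MpLOG, MpERF20 and MpR2R3-MYB5 are red in all 5 columns, and most auxin genes are blue outside hsfa1y.

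Markers of other organs were summed beside these results. Of 6 sexual organ markers, MpBNB had 0 reads in 27 of the 28 libraries and MpBELL1 in 16. The 6 summed to 55.5 to 80.05 CPM in the heated libraries and to 77.5 to 119.9 CPM in the libraries without heat. Most of that sum was MpRKD, a regulator of germ cell formation, which fell in all 5 genotypes (50.02 CPM in heated and 88.7 CPM in control Tak-1). Of the 4 tested members, 2 rose and 2 fell in Tak-1 and in hsfb1, 1 rose and 2 fell in hsfa1y, and 1 rose and 1 fell in hsfa1x and in BC3. Of all tested genes 51.1% were called in Tak-1, 40.4% in hsfb1, 44.5% in hsfa1y, 41.8% in hsfa1x and 47.8% in BC3. MpDUO1 rose in all 5 genotypes, as MpGCAM1 was higher in all 5, by a log2 of 1.79 to 2.42, and MpMID rose in Tak-1 and hsfb1. Among the heated groups hsfa1y had the highest sum, at 78.8 to 80.05 CPM. The 3 oil body cell markers summed to 14.6 to 33.5 CPM with heat and to 19.4 to 38.7 CPM without. Their sum was higher with heat in hsfa1y, as MpGCAM1 was, at 30.8 to 33.5 CPM with heat and 22.1 to 25.8 CPM without, and lower with heat in the other 4 genotypes. In hsfa1y 2 of the 3 rose, MpC1HDZ by a log2 of 0.48 (adjusted p = 0.0291) and MpERF13 by 0.83 (adjusted p = 0.0244), where 22.1% of all genes rose. MpSYP12B stood at -0.51 there and did not pass (adjusted p = 0.122). Most of the sum in heated hsfa1y was MpC1HDZ, at 26.5 CPM. The heat response of MpC1HDZ in hsfa1y was above that in Tak-1 by 1.38 ± 0.26 (adjusted p = 0.000345). For MpERF13 (0.51, adjusted p = 0.476) and MpSYP12B (0.40, adjusted p = 0.565) this difference did not pass. The only rhizoid marker with an identifier, MpRSL1, stood at 4.84 to 13.3 CPM with heat and at 5.595 to 12.1 CPM without. The part of these cell types in the level of MpGCAM1 was not tested, and no marker of cup cells other than MpGCAM1 was listed.

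The genes next to MpGCAM1 on chromosome 6 were taken by position in a reference table (assembly MpTak2_v7.1), and none of the nearest 4 overlaps it there. In hsfa1y the 3 of them that were tested changed with heat by a log2 of -0.37 (Mp6g04810), -0.19 (Mp6g04820) and -0.55 (Mp6g04860), against 4.69 for MpGCAM1. In Tak-1 they stood at -0.25, -0.09 and 0.19. None of these 3 rose in hsfa1y or Tak-1. Mp6g04860 rose in hsfb1 by 0.33 (adjusted p = 0.0405), and its values of 0.13 in hsfa1x and 0.17 in BC3 did not pass; whether these differ was not tested.

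Genes with a like pattern were sought by Pearson r of log2 CPM with MpGCAM1 over the 28 libraries. The libraries share genotypes and heat treatment, so these values describe the pattern and carry no test. Of 13431 other tested genes, 52 had an r above 0.9, and the 10 highest lay between 0.928 and 0.951. None of the 10 has a symbol in the reference table, where 2351 of the 13432 tested genes have one. Mp5g08020 was the most like (r = 0.951), at 31.1 ± 0.420 CPM in heated hsfa1y and 5.52 ± 0.434 CPM in its controls, and at 15.03 ± 0.714 CPM in heated and 6.11 ± 0.792 CPM in control Tak-1. Mp7g19550 (r = 0.946) and Mp6g20000 (r = 0.944) followed. All 10 were higher with heat in each genotype, but by less than MpGCAM1, with log2 changes of 1.14 to 2.49 in hsfa1y and 0.84 to 1.46 in Tak-1. Over the 24 libraries without hsfa1y, which are part of those the genes were chosen on, their r lay between 0.860 and 0.951. Mp5g13090 was 5th from the highest there, and the other 9 ranked between 121st and 591st. The least like were MpERF10 (r = -0.939), of the ERF transcription factors, Mp1g19400 (r = -0.931) and Mp5g19790 (r = -0.928).

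Among genes with a symbol, looked at after the 10 most like had shown none, the highest r values were those of MpTRIHELIX12 (0.925), MpBHLH15 (0.924), MpPP2C_K1 (0.924), MpCIS2 (0.922) and MpGRAS1 (0.917). Over the 24 libraries without hsfa1y their r lay between 0.867 (MpCIS2) and 0.953 (MpBHLH15), the latter above the 0.951 that was highest among the 10. MpTRIHELIX12 had a log2 heat change of 2.74 in hsfa1y and 1.195 in Tak-1, and MpBHLH15 one of 1.87 and 1.67. MpGRAS1 belongs to the GRAS family of transcriptional regulators and had 1.29 and 1.28.

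**Figure D5:**
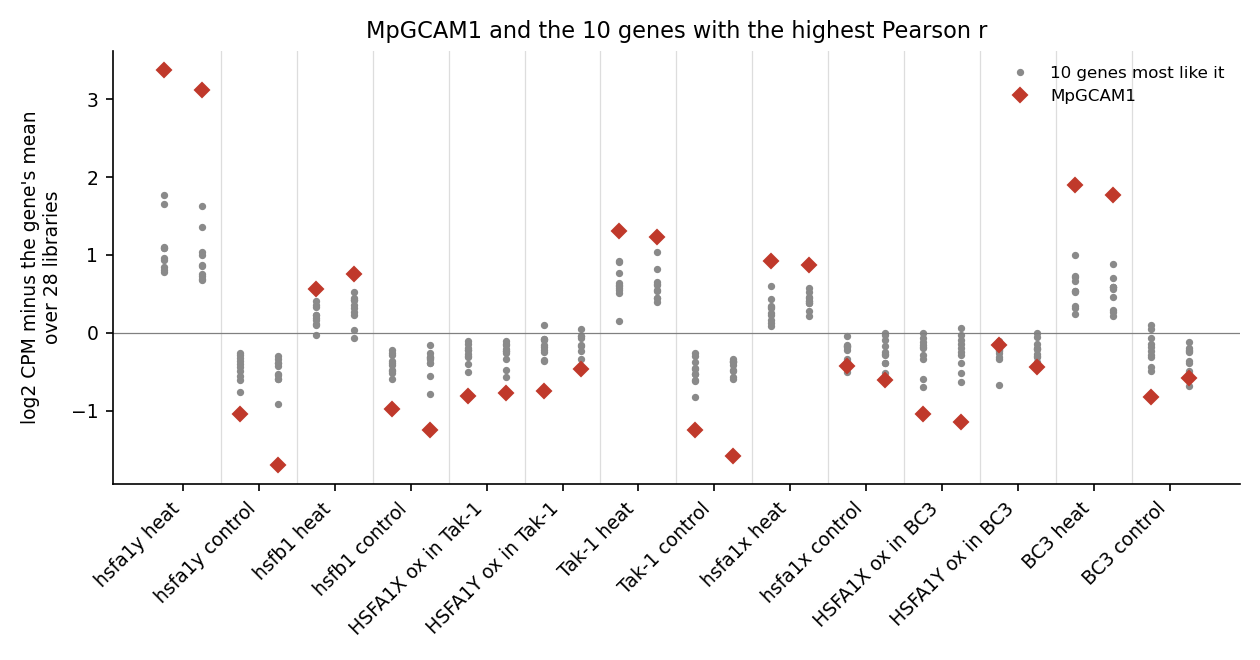
Log2 CPM minus the mean of each gene over 28 libraries, for MpGCAM1 (red diamonds) and the 10 genes with the highest Pearson r with it (grey points), with the 2 libraries of each group side by side. The grey points follow the red ones up in heated groups and down in groups without heat, over a narrower range.

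In all, 1074 of the 13432 tested genes (7.996%) were called higher with heat in each of hsfa1y, hsfb1, Tak-1, hsfa1x and BC3, counting MpGCAM1. For 399 of them the log2 change was higher in hsfa1y than in Tak-1, and for 17 it was higher by at least 1. MpGCAM1 had the largest such difference of the 1074, and 4 of them, itself included, had a log2 change in hsfa1y at least as high as its own. The count includes the rise that singled the gene out, so it is given as a description.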

How the data were processed

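Counts of reads per gene from 28 *M. polymorpha* libraries were used as the authors deposited them, as whole numbers with no normalization; each column was matched to its library through the labels and the sample sheet. The submitters' processing notes name STAR. Its version and the counting program, genome build, strand setting and treatment of multi-mapping reads were not given in the sources used here; the strand setting and multi-mapping reads could change counts of overlapping or duplicated genes. Rows of 1 identifier listed more than once were summed, which left 20574 genes. The other count tables were not used here, because their identifiers are not paired with Mp6g04830. Symbols come from a reference table of the assembly MpTak2_v7.1 matched by locus number (17641 genes matched, 3091 with a symbol). As a check of that match, gene length and level had a Spearman correlation of 0.253 as matched and of at most 0.0549 when the match was shifted by up to 5 genes.

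In R 4.3.3, edgeR 4.0.16 (quasi-likelihood F test, TMM scaling, filterByExpr) was fitted to all 28 libraries with a mean per group, which left 13432 genes. The p-values were adjusted by Benjamini-Hochberg over these genes (threshold 0.05), and 95% intervals are the log2 change ± 2.07 SE. Log2 CPM used a prior count of 2. The fit was tested on simulated data. With n = 2 a group, p-values measure the spread between libraries, with a chi-square per degree of freedom of 2.29 to 17.7 within groups, where counting error alone gives about 1. Libraries held 17.7 to 23.997 M reads.

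The gene, the gene lists and the comparisons were chosen with earlier results of these data known. Genes named from a list are the members called in Tak-1 heat, at most 3 by size, and the largest change in hsfa1y heat; others are named where a sentence says so or as values beside them. Alternatives were DESeq2 1.42.0, RLE scaling, library totals, no filter, a stricter filter (5 CPM in 2 libraries), the libraries of each comparison alone, the replicate number as a block, each library left out, and, chosen after seeing the data, a fit without the 4 hsfa1y libraries. MpGCAM1 passes the stricter filter through heated libraries alone, as its highest library without heat had 2.87 CPM. That alternative is therefore no separate support for a rise with heat.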

Additional observations from a re-analysis of the deposited data

Results flagged for a closer look

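The heat response of MpGCAM1 was lower in hsfa1x than in BC3 by a log2 of -1.13 ± 0.28 (adjusted p = 0.0165 in edgeR), the difference of 2 heat responses that passed its own test. The call held in 12 of 16 alternatives. It was lost in the others, among them the libraries of the comparison alone (adjusted p = 0.146). With heat the level was 6.21 and 5.97 CPM in hsfa1x and 12.3 and 11.2 CPM in BC3. Without heat it was 2.36 and 2.07 CPM in hsfa1x and 1.78 and 2.12 CPM in BC3. The genotype field of the labels gives "ox" for hsfa1x and the deposited sample sheet lists it as a knockout, so the direction is stated for the line as titled.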

How the results depend on the processing

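The rises of MpGCAM1 with heat kept their direction and passed the threshold in every alternative in Tak-1 (log2 2.59 to 2.95), BC3 (2.45 to 2.73), hsfb1 (1.69 to 1.98) and hsfa1x (1.36 to 1.55), and the rise in hsfa1y ranged from 4.34 to 5.07. Smaller differences were less steady, and the cause was not tested. HSFA1X overexpression in Tak-1 passed the threshold with RLE scaling (log2 0.66), library totals alone (0.72), the stricter filter (0.65), the replicate block (0.65) and without the 4 hsfa1y libraries (0.66). Tak-1 against BC3 without heat did not pass with DESeq2 (-0.76), with no filter (-0.75) or with the libraries of the comparison alone (-0.76). With those libraries alone, HSFA1Y overexpression in Tak-1 (0.86) and the response of hsfa1x minus BC3 (-1.13) did not pass either. With each library left out, the log2 ran from 0.68 to 1.04 for HSFA1Y and from 0.48 to 0.84 for HSFA1X overexpression in Tak-1, from -0.94 to -0.58 for Tak-1 against BC3 without heat and from -0.66 to -0.53 with heat, from -0.71 to -0.52 for heated hsfb1 against heated Tak-1, and from -1.28 to -0.99 for hsfa1x minus BC3. The response of Tak-1 minus BC3, which did not pass, ran from -0.00 to 0.35 and changed sign without control replicate 2 of Tak-1 (-0.0042). Library totals moved the median of all genes by more than 0.1 in BC3 heat (-0.14), heated hsfa1y against heated Tak-1 (0.12), and the responses of hsfa1y minus Tak-1 (0.19) and hsfa1x minus BC3 (0.12). The replicate numbers share no pairing in the labels, and deviations of same-numbered libraries correlated between -0.208 and 0.240 over 91 pairs of groups; the block changed no other call. DESeq2 and the block moved no count of genes called by more than 1.5 times. The depth of 21 to 67 reads a library without heat limits what differences without heat can be seen.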
